A study of Danio rerio with 24 samples.

Results

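The comparison described here is between GFP- cells collected 5 h and 3 h after neomycin treatment of zebrafish larvae, measured by RNA sequencing of poly(A)-selected RNA. It rests on 6 of the 24 libraries of the series, 3 of GFP- cells at 5 h and 3 of GFP- cells at 3 h. The libraries were chosen by their labels and by no measured value. All larvae carried the transgene Tg(sqET20), an enhancer trap insertion whose GFP marks supporting and mantle cells of the lateral line neuromasts among other cells, and all were 5 days post fertilization. Both groups had been exposed to 300 uM neomycin, rinsed and left to recover for 5 h or 3 h. Pools of larvae were then dissociated, and living cells were sorted by FACS (fluorescence-activated cell sorting) into GFP+ and GFP- fractions. The GFP- fraction held markers of many cell types, blood, brain, retina, skin, muscle and gut among them. The values are averages over that mixture. Skin markers summed to 2393 to 3708 FPKM in its 6 libraries, against 22836 to 31324 FPKM in the 6 GFP+ libraries of the same times. For connective tissue these sums were 1072 to 1489 against 9208 to 13838 FPKM. Red blood cell markers lay the other way, at 27304 to 44020 against 530 to 1268 FPKM. Skeletal muscle markers differed less between the fractions, at 531 to 636 FPKM in GFP- cells against 393 to 451 FPKM in GFP+ cells. Of the 29 matched muscle markers 8 were too low in GFP- cells to be tested. In bulk samples of this kind, fewer cells of a type and less RNA per cell cannot be told apart. Both groups carry the experiment date Apr2012. Mock-treated larvae were sampled at 1 h only, under the date Mar2012, so time since neomycin and time of day cannot be told apart between 5 h and 3 h.

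Neomycin is an aminoglycoside antibiotic that enters the mechanosensory hair cells of the lateral line and kills them, after which supporting cells divide and replace them. Cells away from the neuromasts are the usual comparison for that response, and they carry programmes of their own. Zebrafish cells hold light-sensitive clocks throughout the body, in which light induces some clock and DNA repair genes and transcription factors of the PAR bZIP family pass the rhythm on. Stress hormones (glucocorticoids), feeding state and growth signals act on metabolic genes and on ribosome production in most tissues.

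The labels do not say that replicates of a group came from separate matings or days, so p-values measure the spread between these samples, which may be technical. The deposited FPKM values (fragment counts divided by transcript length and library size) hold no read totals. From low values, the depth of the 6 libraries relative to their own median was 0.939 to 1.16 at 5 h and 0.795 to 1.12 at 3 h. They held 19024 to 19058 genes at 1 FPKM or more at 5 h and 19077 to 19286 at 3 h. Replicate 1 of 5 h stood apart from the other 5 libraries, with a score of 49.0 on the first principal component (26.0% of the variance) where the others ran from -30.4 to 2.72. Replicate 1 of 3 h was the shallowest library and had the highest score on the second component, 41.8. Pearson's r across genes on the log2(FPKM + 1) scale was 0.951 to 0.962 within a group and 0.943 to 0.965 between the groups, so libraries of different times were as alike as libraries of the same time. A pair of genes from the lateral line supporting cell list, chosen after their values were seen, show the sort. TSPAN1, a tetraspanin, stood at 0.175 to 0.321 FPKM at 5 h and 0.0839 to 0.311 FPKM at 3 h in GFP- cells, against 87.5 to 121 FPKM at 5 h and 61.4 to 79.4 FPKM at 3 h in GFP+ cells. The transcription factor gene sox21a stood at 2.81 to 4.90 FPKM over the 6 GFP- libraries and at 119 to 191 FPKM over the 6 GFP+ libraries of the same times.

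No gene passed a test for a difference between 5 h and 3 h in GFP- cells against the spread between replicates. Of 19256 genes tested with limma on log2(FPKM + 1), 0 (0%) had an adjusted p under 0.05 (Benjamini-Hochberg), and the smallest adjusted p was 0.235. At an unadjusted p under 0.05 stood 502 genes with the higher value at 5 h (2.61%) and 1171 with the lower (6.08%). After median-of-ratios scaling the same counts were 862 and 790. The share of higher genes among them thus moved to 52.2% from 30.0%, while the median difference of all genes moved to 0.00 from -0.04 (log2). The precision of the comparison can be read from the intervals. For the median gene the 95% confidence interval reached 0.32 (log2) to either side of the estimate, 0.40 in the lowest of 5 equal bins by level and 0.26 in the highest. An interval that lay within -1 and 1 was found for 17800 genes (92.4%). These intervals are on log2(FPKM + 1), which understates differences of low genes, so for such genes they do not bound the fold change.

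**Figure D1:**
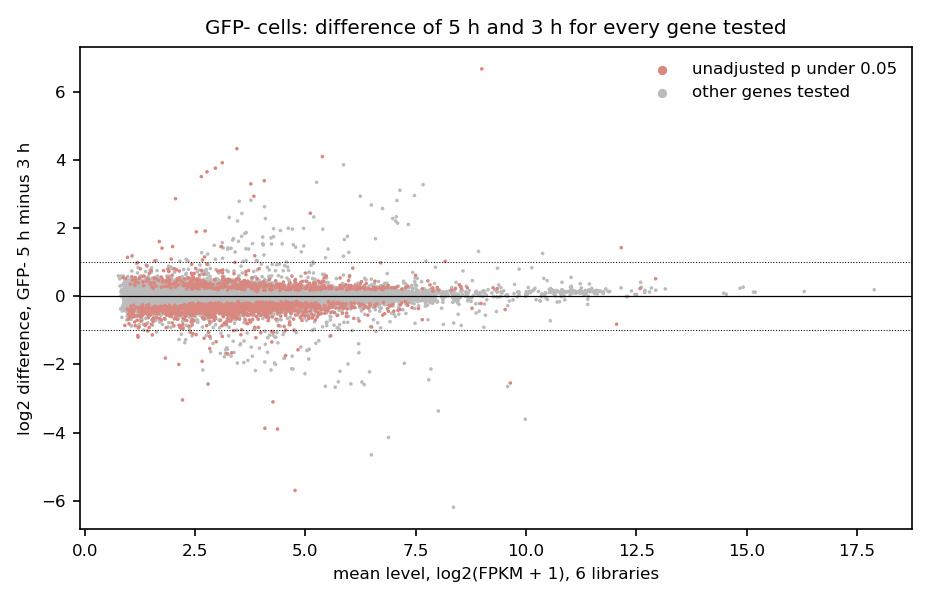
Each point is 1 of the 19256 genes tested in GFP- cells, with its mean level over the 6 libraries on the x axis (log2(FPKM + 1)) and its difference, 5 h minus 3 h, on the y axis (log2). Red points have an unadjusted p under 0.05 (limma), none passed an adjusted p of 0.05, dotted lines mark differences of 1 and -1, and the cloud is centred just below 0 (median -0.04).

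Because no gene passed, the genes below are given with their values in every library and as differences that did not pass the test. A second, descriptive measure is the count of genes whose groups do not overlap, meaning that all 3 libraries of 5 h lie above, or all below, all 3 libraries of 3 h. Over all genes tested, 965 (5.01%) lay higher at 5 h without overlap and 2075 (10.8%) lower. After median-of-ratios scaling these were 1524 (7.91%) and 1453 (7.55%). Without replicate 1 of 5 h they were 8.31% and 15.0%, and without replicate 1 of 3 h they were 7.95% and 17.0%, since fewer libraries overlap less often. Counts of list members are read against these shares. A gene is named because it had the smallest p of its list or, where this is said, because it was chosen after its values were seen.

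TENT5C had the smallest p over the whole table, and the other genes of this paragraph were chosen among those with a small p after their values were seen. TENT5C (ENSDARG00000010437), a poly(A) polymerase that stabilises messenger RNAs, had 9.51, 12.1 and 12.4 FPKM at 5 h, against 20.6, 25.9 and 26.4 FPKM at 3 h. Its difference was -1.03 ± 0.14 (log2 ± SE, adjusted p = 0.235), and all of its 5 h libraries lay below all of its 3 h libraries. ABCA1 (ENSDARG00000074635), which exports cholesterol from cells, had 21.6, 28.3 and 28 FPKM at 5 h, against 40.1, 36 and 41.6 FPKM at 3 h, a difference of -0.59 ± 0.11 (adjusted p = 0.369), again without overlap. penka (ENSDARG00000004869), the precursor of the opioid peptide enkephalin, had 13.8, 12 and 8.74 FPKM at 5 h, against 4.42, 4.45 and 2.05 FPKM at 3 h. Its difference was 1.46 ± 0.31 with an interval from 0.77 to 2.15 (adjusted p = 0.369). DGKG (ENSDARG00000062696), a diacylglycerol kinase, had 3.79, 2.69 and 1.96 FPKM at 5 h, against 10.14, 4.46 and 10.11 FPKM at 3 h and a difference of -1.23 ± 0.28 (adjusted p = 0.385). Its 3 h replicate 2, at 4.46 FPKM, lay much nearer to the 5 h values than the other two. acy3.1 (ENSDARG00000093003), an aminoacylase, had 11.2, 9.1 and 8.97 FPKM at 5 h, against 5.61, 4.82 and 6.61 FPKM at 3 h, so every 5 h library lay above every 3 h library (difference 0.69 ± 0.14, adjusted p = 0.369).

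The members of 49 gene lists, covering cell type markers, stress and hormone responses, metabolism, proliferation and signalling, were then read out together. Of 1758 members written, 1368 were matched to a gene in the table. Among lists with at least 5 tested members, those with the lowest medians were exocrine pancreas (-0.79), light-responsive repair (-0.75), glucocorticoid response (-0.22) and endothelium (-0.22), and the highest were intestine (0.25), proteasome (0.20), cartilage and bone (0.20) and oxidative phosphorylation (0.16), against -0.04 for all genes. The median of 26 of these 48 lists changed sign when 1 of the 6 libraries was left out, intestine, liver, skin and cholesterol and lipid synthesis among them. No member of any list passed the test (0 of each).

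**Figure D2:**
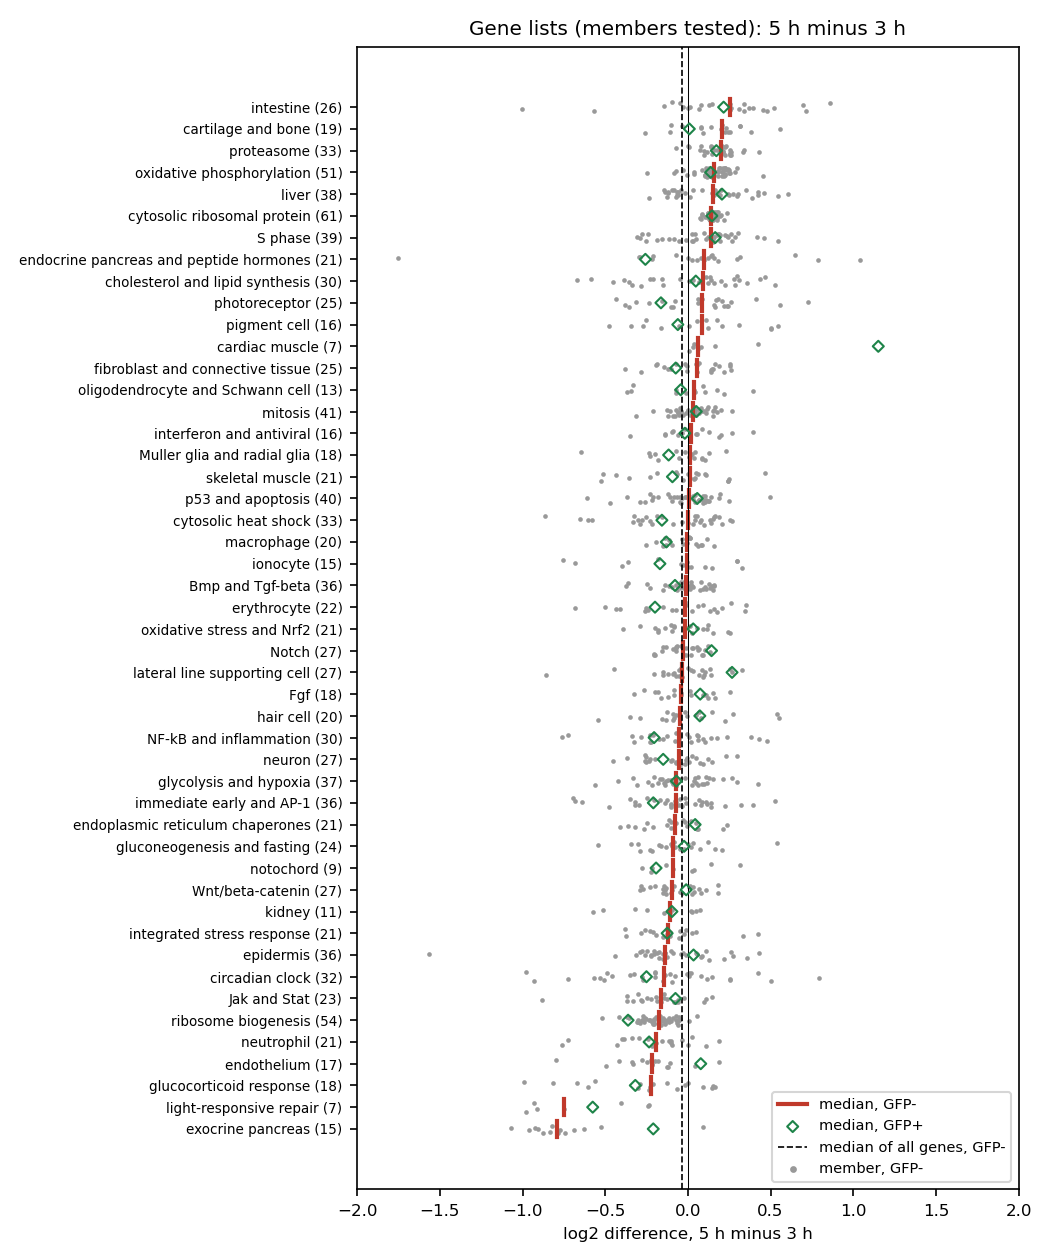
Each row is 1 of the 48 lists with at least 5 tested members (number in brackets), sorted by median, each grey point is a member's log2 difference, 5 h minus 3 h, in GFP- cells (x axis), and the vertical jitter has no meaning. Red bars are list medians in GFP- cells, green diamonds the medians of the same members in GFP+ cells, and the dashed line the median of all genes in GFP- cells (-0.04); exocrine pancreas and light-responsive repair lie farthest to the left in GFP- cells.

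Genes that light induces in zebrafish were mostly lower at 5 h than at 3 h, though none passed. Of 7 tested members of the light-responsive repair list, 7 had a negative difference, and 4 lay lower without overlap (background 10.8%). DDB2 (ENSDARG00000041140), which recognises ultraviolet damage in DNA, had 7.81, 9.77 and 11 FPKM at 5 h, against 19.6, 13.4 and 24.5 FPKM at 3 h. Its difference was -0.91 ± 0.21 (adjusted p = 0.385), the smallest p of the list. The photolyase genes undo such damage with the energy of light. cry5 (ENSDARG00000019498), the 6-4 photolyase, had 1.45, 2.42 and 2.24 FPKM at 5 h, against 3.88, 3.33 and 7.92 FPKM at 3 h (difference -0.93 ± 0.24, adjusted p = 0.449), the smallest p of the clock list. cry-dash (ENSDARG00000002396), chosen after its values were seen, had 7.86, 9.17 and 9.64 FPKM at 5 h, against 15.07, 11.08 and 22.6 FPKM at 3 h (difference -0.75 ± 0.20). In all 3 of these genes the highest library was replicate 3 of 3 h and the 3 libraries of 5 h lay close together. PER2 (ENSDARG00000034503), a light-inducible repressor of the clock, belonged to both this list and the circadian clock list, so these lists are not independent. It was chosen after its values were seen and had 3.39, 12.7 and 8.95 FPKM at 5 h, against 16.7, 7.18 and 30.5 FPKM at 3 h. Its groups overlapped, and the large spread gave a difference of -0.98 ± 0.48 with an interval from -2.02 to 0.07. The mean log2(FPKM + 1) of the list's members was 2.819, 3.233 and 3.218 at 5 h, against 3.677, 3.260 and 4.243 at 3 h, so replicate 2 of 3 h was close to the 5 h libraries and replicate 3 far above them. The list's median of -0.75 was -0.50 without replicate 3 of 3 h. In GFP+ cells it was -0.58, with 0 members passing there either (1.62% of all genes passed in GFP+ cells, 0.893% higher and 0.722% lower at 5 h). The GFP+ means over the members were 2.806, 4.123 and 3.033 at 5 h, against 3.823, 2.972 and 4.731 at 3 h. As in GFP- cells, replicate 2 was the highest at 5 h and replicate 3 at 3 h. The labels do not say whether GFP+ and GFP- libraries of the same number came from the same pool. The GFP+ values may thus not be independent of the GFP- values.

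The circadian clock list held members in both directions. Of 32 tested members 4 lay higher and 9 lower without overlap, against 5.01% and 10.8% of all genes. Without replicate 1 of 5 h the counts were 7 and 10, against 8.31% and 15.0% of all genes. Its median was -0.14, or -0.08 without replicate 1 of 5 h (-0.25 in GFP+ cells). All the clock genes named in this paragraph were chosen after their values were seen. Among output and feedback genes, tefa (ENSDARG00000039117), a PAR bZIP activator, had 45.9, 58.2 and 59.06 FPKM at 5 h, against 96.5, 64.4 and 117 FPKM at 3 h (difference -0.72 ± 0.18, adjusted p = 0.449). The related activator dbpb (ENSDARG00000057652) had 16.3, 13.8 and 14.6 FPKM at 5 h, against 25.4, 22.7 and 18.3 FPKM at 3 h (difference -0.53 ± 0.32). PER1 (ENSDARG00000012499), a repressor, had 18.1, 18.3 and 19.2 FPKM at 5 h, against 29.99, 21.7 and 28.3 FPKM at 3 h (difference -0.49 ± 0.16), and NR1D1 (ENSDARG00000033160), the Rev-erb repressor, had 35.8, 37.8 and 30.8 FPKM at 5 h, against 49.2, 39.5 and 43 FPKM at 3 h (difference -0.33 ± 0.11). BHLHE41 (ENSDARG00000041691), a repressor that binds E-boxes, had 15.7, 13.6 and 10.4 FPKM at 5 h, against 27.6, 16.7 and 16.9 FPKM at 3 h (difference -0.57 ± 0.38). In each of these 5 genes all 5 h libraries lay below all 3 h libraries. Ror nuclear receptors activate through the same DNA element that Rev-erb represses. rorcb (ENSDARG00000017780), one of them, had 5.33, 9.15 and 8.26 FPKM at 5 h, against 4.07, 4.82 and 2.89 FPKM at 3 h, a difference of 0.79 ± 0.39 with an interval from -0.07 to 1.65. rorca (ENSDARG00000057231) had 33.5, 50.6 and 44.5 FPKM at 5 h, against 25.3, 33.2 and 30.7 FPKM at 3 h (difference 0.50 ± 0.34), so both genes had every 5 h library above every 3 h library while their intervals spanned 0. These intervals include the spread of the mock and 1 h libraries, where rorca had SDs of 17 and 16.5 FPKM. Its SDs were 8.63 FPKM at 5 h and 4.05 FPKM at 3 h.

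Glucocorticoid-responsive genes leaned lower at 5 h. Of 18 tested members of that list 7 lay lower without overlap and 0 higher, against 10.8% and 5.01% of all genes. The median was -0.22, and -0.32 in GFP+ cells. Without replicate 1 of 5 h the counts were 9 and 1, against 15.0% and 8.31% of all genes. The median was -0.14 without replicate 1 of 3 h and -0.12 without replicate 3 of 5 h. LPIN1 (ENSDARG00000020239), a phosphatidate phosphatase and the member with the smallest p, had 11.3, 10.8 and 10.15 FPKM at 5 h, against 18.7, 15.06 and 19.7 FPKM at 3 h (difference -0.67 ± 0.19, adjusted p = 0.471). KLF9 (ENSDARG00000068194), a transcription factor induced by the glucocorticoid receptor, was chosen after its values were seen. It had 14.3, 17.8 and 12.4 FPKM at 5 h, against 26.8, 29.3 and 34.8 FPKM at 3 h, a difference of -0.99 ± 0.29 (adjusted p = 0.480), and its 2 groups lay well apart. PFKFB4 (ENSDARG00000029075), which sets the level of a glycolysis activator and had the smallest p of the glycolysis and hypoxia list, had 33.8, 43.6 and 46.5 FPKM at 5 h, against 48.1, 57.5 and 81 FPKM at 3 h (difference -0.56 ± 0.20). STAR (ENSDARG00000006137), which carries cholesterol into mitochondria for steroid synthesis, was near the detection limit with 0.5002, 1.04 and 0.8998 FPKM at 5 h, against 1.14, 1.83 and 4.28 FPKM at 3 h (difference -0.82 ± 0.37) and was chosen after its values were seen.

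Genes of the Jak and Stat pathway showed a similar lean. Of 23 tested members 6 lay lower without overlap and 0 higher, against 10.8% and 5.01% of all genes (median -0.16, and -0.08 in GFP+ cells). After median-of-ratios scaling the counts were 3 and 1, against 7.55% and 7.91% of all genes, so they lay nearer to the background. SOCS2 (ENSDARG00000045557), a feedback inhibitor of growth hormone and cytokine receptors, had the smallest p of the list. It had 11, 18 and 16.7 FPKM at 5 h, against 35.2, 26.2 and 24.7 FPKM at 3 h, a difference of -0.88 ± 0.21 (adjusted p = 0.403). SOCS3 (ENSDARG00000026611), the feedback inhibitor of Stat3, had 8.41, 8.48 and 8.47 FPKM at 5 h, against 11.7, 10.25 and 9.5 FPKM at 3 h (difference -0.28 ± 0.25, interval from -0.84 to 0.28). The gene of the transcription factor itself, STAT3 (ENSDARG00000022712), had 13.4, 15.5 and 18.5 FPKM at 5 h, against 24.2, 17 and 21 FPKM at 3 h, where replicate 3 of 5 h lay above replicate 2 of 3 h (difference -0.37 ± 0.18). SOCS3 and STAT3 were chosen after their values were seen.

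Genes for making ribosomes leaned lower as a group by a small amount. Of 54 tested members of the ribosome biogenesis list, which covers nucleolar processing and assembly factors and RNA polymerase I, 52 had a negative difference and 2 a positive one, in a range from -0.52 to 0.05, with a median of -0.18, or -0.10 without replicate 2 of 5 h. Without overlap 18 lay lower (10.8% of all genes did) and 0 higher. Without replicate 1 of 5 h, whose values for these genes were the nearest to 3 h, 38 lay lower (15.0% of all genes did). The mean log2(FPKM + 1) over the members was 5.023, 4.736 and 4.904 at 5 h, against 5.098, 5.090 and 5.036 at 3 h, so replicate 1 of 5 h lay just under the 3 h libraries and replicate 2 farthest from them. POLR1B (ENSDARG00000077469), a core subunit of RNA polymerase I, had 9.78, 7.63 and 7.26 FPKM at 5 h, against 14.2, 11.6 and 10.8 FPKM at 3 h. Its difference of -0.52 ± 0.15 had the smallest p of the list (adjusted p = 0.471). The next genes were chosen after their values were seen. nop2 (ENSDARG00000043304), a methyltransferase of ribosomal RNA, had 29.3, 22.4 and 27.9 FPKM at 5 h, against 37.1, 32 and 37.8 FPKM at 3 h (difference -0.42 ± 0.12). DKC1 (ENSDARG00000016484), the pseudouridine synthase of ribosomal RNA, had 57.1, 47.6 and 54 FPKM at 5 h, against 68.8, 73.2 and 63.8 FPKM at 3 h (difference -0.37 ± 0.11). NOP56 (ENSDARG00000012820), of the methylation complex that uses box C/D guide RNAs, had 155, 133 and 145 FPKM at 5 h, against 172, 176 and 172 FPKM at 3 h (difference -0.27 ± 0.08). In these 3 genes all 5 h libraries lay below all 3 h libraries. URB2 (ENSDARG00000003217), an assembly factor of the large subunit, had 8.77, 8.46 and 8.14 FPKM at 5 h, against 10.7, 9.88 and 11.6 FPKM at 3 h (difference -0.31 ± 0.10), and ncl (ENSDARG00000002710), the abundant nucleolar protein nucleolin, had 517, 414 and 479 FPKM at 5 h, against 534, 546 and 541 FPKM at 3 h (difference -0.21 ± 0.09). The same list had a median of -0.36 in GFP+ cells, where 6 of the 54 members passed, all lower at 5 h (0.722% of all genes did). The difference between the populations was not past the test for any member of the list.

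The ribosomal protein genes did not follow the factors that assemble them. All 61 tested members of the cytosolic ribosomal protein list had a positive difference, from 0.07 to 0.24 (median 0.14). Of them 0 lay apart without overlap, or 11 higher without replicate 1 of 3 h (7.95% of all genes). RPLP1 (ENSDARG00000021864), a stalk protein of the large subunit and the member with the smallest p, had 3905, 2572 and 2931 FPKM at 5 h, against 2797, 2519 and 2552 FPKM at 3 h, where replicate 1 of 5 h stood alone at the top (difference 0.24 ± 0.14, adjusted p = 0.629). The list's median was 0.01 without replicate 1 of 5 h, 0.08 without replicate 3 of 3 h, 0.24 without replicate 2 of 5 h and 0.00 after quantile normalization.

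A further 2 groups of abundant genes, for the proteasome and for mitochondrial respiration, leaned higher at 5 h. Of 33 tested proteasome genes 32 had a positive difference, 11 lay higher without overlap (5.01% of all genes did) and 0 lower, with a median of 0.20. After median-of-ratios scaling 21 of the 33 lay higher (7.91% of all genes). The mean over the members was 6.360, 6.253 and 6.250 at 5 h, against 5.988, 6.235 and 6.088 at 3 h, in log2(FPKM + 1). PSMD13 (ENSDARG00000016239), a subunit of the proteasome lid, had 95.2, 86.5 and 82 FPKM at 5 h, against 60.6, 69.9 and 64.1 FPKM at 3 h. It had the smallest p of the list with a difference of 0.43 ± 0.08 (adjusted p = 0.369). Subunits of the catalytic core, chosen after their values were seen, had smaller differences. PSMB4 (ENSDARG00000054696) had 143, 132 and 139 FPKM at 5 h, against 108, 122 and 115 FPKM at 3 h (difference 0.26 ± 0.07). PSMA2 (ENSDARG00000035679) had 86.2, 73.7 and 80.3 FPKM at 5 h, against 63.1, 70.201 and 66.1 FPKM at 3 h (difference 0.26 ± 0.08), and PSMA6 (ENSDARG00000019398) had 66.8, 58.1 and 55.5 FPKM at 5 h, against 44.8, 53.6 and 51.9 FPKM at 3 h (difference 0.26 ± 0.10). All 4 proteasome genes had every 5 h library above every 3 h library.

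Of 51 tested genes of oxidative phosphorylation, 46 had a positive difference, with a median of 0.16. Without overlap 13 lay higher and 2 lower (5.01% and 10.8% of all genes). After median-of-ratios scaling 24 lay higher and 0 lower (7.91% and 7.55% of all genes). The member with the smallest p was ndufb3 (ENSDARG00000075709), an accessory subunit of complex I, with 286, 222 and 251 FPKM at 5 h, against 188, 197 and 166 FPKM at 3 h (difference 0.45 ± 0.11, adjusted p = 0.428). Other complex I subunits, chosen after their values were seen, were ndufa5 (ENSDARG00000039346) with 124, 121 and 112 FPKM at 5 h, against 93.1, 95.9 and 103 FPKM at 3 h (difference 0.29 ± 0.07), and NDUFS7 (ENSDARG00000074552) with 139.7, 133 and 126 FPKM at 5 h, against 115, 117 and 103 FPKM at 3 h (difference 0.25 ± 0.07). SDHA (ENSDARG00000016721), the catalytic subunit of complex II, lay the other way with 129, 128 and 129.8 FPKM at 5 h, against 163, 135 and 164 FPKM at 3 h (difference -0.25 ± 0.09). It was 1 of the 2 members that were lower without overlap, and it was chosen after its values were seen. In GFP+ cells the medians were 0.17 for the proteasome and 0.14 for oxidative phosphorylation, of the same sign as in GFP- cells, with 0 members passing in either list.

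**Figure D3:**
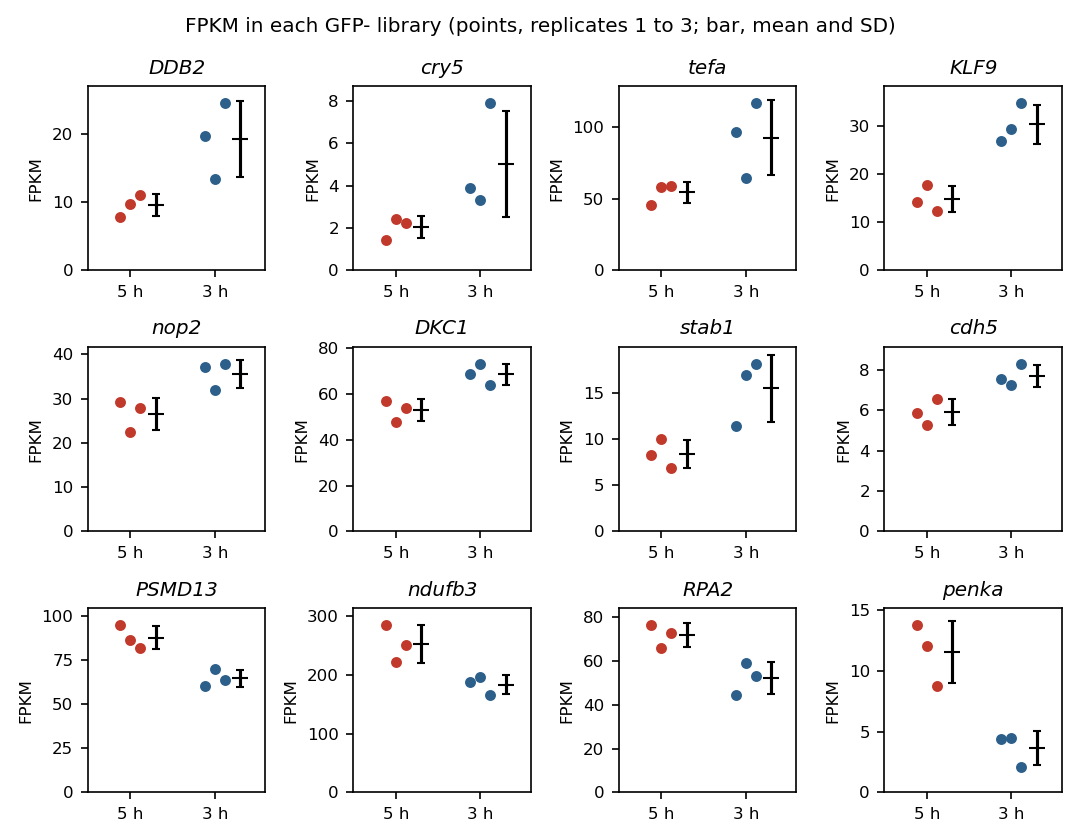
FPKM (y axis, from 0) of 12 genes in the 3 GFP- libraries of 5 h (red) and the 3 of 3 h (blue), with the mean and SD as a black bar beside each group. DDB2, cry5, tefa, KLF9, nop2, DKC1, stab1 and cdh5 have their 5 h points below their 3 h points, and PSMD13, ndufb3, RPA2 and penka have them above. Only genes whose groups did not overlap are drawn, so they do not stand for all members of their lists.

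The chaperone list held genes that leaned in opposite directions. Of 33 tested members of the cytosolic heat shock list 4 lay higher and 7 lower without overlap (5.01% and 10.8% of all genes). These counts were 8 and 4 after median-of-ratios scaling (7.91% and 7.55% of all genes), and the median was 0.00 before scaling. hsp70.3 (ENSDARG00000021924), an inducible Hsp70 and the member with the smallest p, had 0.534, 0.454 and 0.704 FPKM at 5 h, against 2.45, 1.68 and 1.47 FPKM at 3 h (difference -0.86 ± 0.24, adjusted p = 0.471). It reached the 1 FPKM needed to be tested only at 3 h. The filter thus fixed its direction and lack of overlap, though it is counted among the 7 lower. The other chaperone genes named here were chosen after their values were seen. hsp70l (ENSDARG00000055723) had 1.95, 2.56 and 2.75 FPKM at 5 h, against 4.92, 3.68 and 3.78 FPKM at 3 h (difference -0.58 ± 0.34), and HSP90AA1 (ENSDARG00000024746), the inducible Hsp90, had 81.1, 81.5 and 72.2 FPKM at 5 h, against 83.4, 109 and 98.5 FPKM at 3 h (difference -0.30 ± 0.17). HSPD1 (ENSDARG00000056160), the mitochondrial chaperonin, had 77.3, 70.7 and 70.6 FPKM at 5 h, against 82.8, 96.5 and 89 FPKM at 3 h (difference -0.29 ± 0.10). dnaja1 (ENSDARG00000030972), a co-chaperone of Hsp70, had 20.3, 19.7 and 23.4 FPKM at 5 h, against 23.7, 29.4 and 27.6 FPKM at 3 h (difference -0.33 ± 0.14). The cytosolic chaperonin folds actin and tubulin. Among its subunits were CCT4 (ENSDARG00000013475) with 261, 236 and 249 FPKM at 5 h, against 224, 229.9 and 217 FPKM at 3 h (difference 0.15 ± 0.07) and TCP1 (ENSDARG00000017891) with 204, 188 and 193 FPKM at 5 h, against 164, 178 and 171 FPKM at 3 h (difference 0.19 ± 0.09). In GFP+ cells 8 of the 33 members passed with lower and 1 with higher values at 5 h (0.722% and 0.893% of all genes). Among the lower were the genes hsp70l, HSP90AA1, HSPD1 and dnaja1, with differences of -0.99, -0.98, -0.75 and -0.81 (adjusted p = 0.0151, 0.0111, 0.0299 and 0.0144). The difference between the populations did not pass for any of these 4 genes (adjusted p = 0.766, 0.457, 0.701 and 0.595). Of the integrated stress response list (median -0.12) 4 of 21 lay lower and 0 higher (10.8% and 5.01% of all genes). Without replicate 1 of 3 h 11 members of this list lay lower (17.0% of all genes). ASNS (ENSDARG00000016375), asparagine synthetase, had its smallest p with 10.7, 9.62 and 10.6 FPKM at 5 h, against 12.2, 13.4 and 12.7 FPKM at 3 h (difference -0.28 ± 0.11). For endoplasmic reticulum chaperones and folding factors 1 of 21 lay higher and 3 lower (5.01% and 10.8% of all genes), with a median of -0.08. Without replicate 1 of 5 h 5 lay lower (15.0% of all genes), and likewise without replicate 1 of 3 h (17.0%). HERPUD1 (ENSDARG00000024314), of the degradation pathway for misfolded proteins, had 25.7, 26 and 28.8 FPKM at 5 h, against 34.7, 29.7 and 33.1 FPKM at 3 h (difference -0.27 ± 0.11).

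DNA replication genes leaned higher at 5 h, and genes of mitosis hardly differed. Of 39 tested members of the S phase list 28 had a positive difference (median 0.14, or 0.06 without replicate 1 of 5 h). Without overlap 8 lay higher and 1 lower (5.01% and 10.8% of all genes). These counts were 8 and 8 without replicate 1 of 5 h (8.31% and 15.0% of all genes). Without replicate 1 of 3 h they were 9 and 3 (7.95% and 17.0% of all genes). The mean over the members overlapped between the groups at 4.923, 4.703 and 4.794 at 5 h, against 4.611, 4.835 and 4.709 at 3 h, in log2(FPKM + 1). The 2 small subunits of replication protein A, which coats single-stranded DNA at the fork, lay higher without overlap. RPA2 (ENSDARG00000037188) had 76.6, 66.2 and 73.1 FPKM at 5 h, against 44.6, 58.9 and 53.2 FPKM at 3 h and the smallest p of the list (difference 0.46 ± 0.11, adjusted p = 0.420). RPA3 (ENSDARG00000002613), chosen after its values were seen as were the next 4 genes, had 62.7, 43.1 and 44.7 FPKM at 5 h, against 34.2, 36.7 and 30.4 FPKM at 3 h (difference 0.54 ± 0.14). TYMS (ENSDARG00000042894), which makes thymidylate, had 47.5, 44.9 and 41.2 FPKM at 5 h, against 28.4, 38.1 and 33.2 FPKM at 3 h (difference 0.42 ± 0.13). GINS1 (ENSDARG00000007624), of the replicative helicase, had 13.1, 10.3 and 11.2 FPKM at 5 h, against 7.93, 9.95 and 9.52 FPKM at 3 h (difference 0.31 ± 0.13). PCNA (ENSDARG00000054155), the sliding clamp of the polymerases, had 379.8, 326 and 332 FPKM at 5 h, against 253, 334 and 282 FPKM at 3 h, so replicate 2 of 3 h lay above 2 of the 5 h libraries (difference 0.26 ± 0.13). CDT1 (ENSDARG00000051854), which licenses origins before S phase, lay lower with 8.82, 8.84 and 10.07 FPKM at 5 h, against 10.8, 12.5 and 11 FPKM at 3 h (difference -0.28 ± 0.15). In the mitosis list 4 of 41 lay higher and 2 lower (5.01% and 10.8% of all genes), with a median of 0.03. Without replicate 1 of 3 h these counts were 4 and 4 (7.95% and 17.0% of all genes). MAD2L1 (ENSDARG00000004713), of the spindle checkpoint, had its smallest p with 46.6, 40.1 and 37 FPKM at 5 h, against 36.8, 34.2 and 31 FPKM at 3 h (difference 0.27 ± 0.14, adjusted p = 0.602).

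Of the p53 and apoptosis list 1 of 40 members lay higher and 7 lower without overlap (5.01% and 10.8% of all genes). These counts were 2 and 3 after median-of-ratios scaling (7.91% and 7.55% of all genes). Without replicate 1 of 3 h they were 5 and 8 (7.95% and 17.0% of all genes). In the list 20 differences were positive and 20 negative (median 0.01). BCL2L1 (ENSDARG00000008434), which protects mitochondria from apoptosis, had the smallest p with 30.02, 35.7 and 37.6 FPKM at 5 h, against 41.9, 43.5 and 48.4 FPKM at 3 h (difference -0.37 ± 0.10, adjusted p = 0.449). A further 3 genes were added after their values were seen. cdkn1a (ENSDARG00000076554), the cell cycle inhibitor p21, had 14.7, 12.4 and 11.2 FPKM at 5 h, against 19, 21.7 and 19.3 FPKM at 3 h (difference -0.61 ± 0.26). BNIP3L (ENSDARG00000028067), a receptor for the removal of mitochondria, had 30.8, 47.3 and 39.7 FPKM at 5 h, against 48.4, 53.3 and 61.3 FPKM at 3 h (difference -0.47 ± 0.15). The pro-apoptotic gene bik (ENSDARG00000045549) was the member on the higher side, with 22.8, 17.6 and 16.1 FPKM at 5 h, against 14.5, 14.3 and 10.3 FPKM at 3 h (difference 0.50 ± 0.26, interval from -0.08 to 1.07).

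Sterol genes lay on both sides. Of 30 tested members of the cholesterol and lipid synthesis list 7 lay higher and 5 lower without overlap (5.01% and 10.8% of all genes), with a median of 0.09. ABCA1, given above, had the smallest p of the list on the lower side. The enzymes of sterol synthesis named next had higher values at 5 h, and were chosen after their values were seen. LSS (ENSDARG00000061274), which closes the sterol rings, had 2.41, 3.27 and 2.43 FPKM at 5 h, against 1.43, 1.8 and 1.79 FPKM at 3 h (difference 0.47 ± 0.13, adjusted p = 0.460). SQLE (ENSDARG00000079946), which oxidises squalene, had 5.63, 7.47 and 5.16 FPKM at 5 h, against 2.39, 4.6 and 5.11 FPKM at 3 h (difference 0.52 ± 0.25), with replicate 3 of 5 h only just above replicate 3 of 3 h. CYP51A1 (ENSDARG00000042641), a demethylase later in the same pathway, had 9.34, 12.8 and 9.7 FPKM at 5 h, against 5.38, 8.99 and 8.67 FPKM at 3 h (difference 0.43 ± 0.18). A pair of genes that move sterol out of cells or limit its uptake, chosen likewise, had lower values at 5 h. ABCG1 (ENSDARG00000063475), a second sterol exporter, had 7.13, 9.51 and 9.92 FPKM at 5 h, against 12.3, 10.8 and 14.2 FPKM at 3 h (difference -0.45 ± 0.14). MYLIP (ENSDARG00000008859), a ubiquitin ligase that removes the LDL receptor, had 20.4, 23.4 and 20.5 FPKM at 5 h, against 26.6, 23.9 and 24.4 FPKM at 3 h (difference -0.21 ± 0.10). In mammals ABCA1, ABCG1 and MYLIP are all induced by the sterol-sensing receptor LXR. None of these genes passed, and in GFP+ cells the list's median was 0.05.

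Markers of blood vessels were the cell type list with the most members apart. Of 17 tested endothelial members 15 had a negative difference, 10 lay lower without overlap and 1 higher (10.8% and 5.01% of all genes). Without replicate 1 of 5 h these counts were 10 and 1 (15.0% and 8.31% of all genes). They were 12 and 1 without replicate 1 of 3 h (17.0% and 7.95%), and 9 and 1 after median-of-ratios scaling (7.55% and 7.91%). The list's median was -0.22, against 0.08 in GFP+ cells. The summed FPKM of the list was 158 to 165 at 5 h and 182 to 212 at 3 h. stab1 (ENSDARG00000076484), a scavenger receptor of venous and lymphatic endothelium, had the smallest p with 8.33, 9.99 and 6.9 FPKM at 5 h, against 11.4, 17 and 18.2 FPKM at 3 h (difference -0.80 ± 0.17, adjusted p = 0.369). mrc1b (ENSDARG00000038822), a mannose receptor outside the list, was chosen after its values were seen, as were the other genes of this paragraph. Its values were 21.9, 22 and 21.9 FPKM at 5 h, against 40.7, 29.2 and 40.5 FPKM at 3 h (difference -0.71 ± 0.14, adjusted p = 0.369), with the 5 h libraries nearly equal. cdh5 (ENSDARG00000075549), the cadherin of vessel junctions, had 5.87, 5.26 and 6.54 FPKM at 5 h, against 7.52, 7.25 and 8.29 FPKM at 3 h (difference -0.34 ± 0.13). KDR (ENSDARG00000017321), a Vegf receptor, had 2.28, 2.56 and 2.52 FPKM at 5 h, against 3.27, 3.74 and 3.88 FPKM at 3 h (difference -0.42 ± 0.17), and tek (ENSDARG00000028663), the angiopoietin receptor, had 4.61, 4.38 and 4.19 FPKM at 5 h, against 5.34, 6.57 and 5.51 FPKM at 3 h (difference -0.33 ± 0.11). plvapb (ENSDARG00000045003), of the diaphragms of fenestrated vessels, had 16.1, 16.9 and 15.7 FPKM at 5 h, against 20.6, 21.2 and 28.8 FPKM at 3 h (difference -0.50 ± 0.29, interval from -1.15 to 0.15). In GFP+ cells 1 member of the list passed with a higher value at 5 h (0.893% of all genes did), and the difference between the populations passed for 0 members.

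Exocrine pancreas genes had the lowest median of all lists, -0.79, and 14 of 15 tested members had a negative difference, but 0 lay apart without overlap. Their summed FPKM was 1448, 1999.9 and 796 at 5 h, against 2681, 3469 and 1367 at 3 h, so replicate 2 was the highest and replicate 3 the lowest library at both times. amy2al2 (ENSDARG00000009443), an amylase, had the smallest p with 14.8, 28.5 and 8.43 FPKM at 5 h, against 34.4, 55.1 and 19.4 FPKM at 3 h (difference -1.07 ± 0.48, adjusted p = 0.574). The list's median was -0.44 without replicate 3 of 5 h, -0.50 without replicate 2 of 3 h and -1.21 without replicate 3 of 3 h. Intestine and liver lists leaned the other way with a wide spread between libraries. For intestine 20 of 26 differences were positive (median 0.25, and -0.05 without replicate 3 of 3 h). Without overlap 1 lay higher and 0 lower, or 4 higher without replicate 1 of 5 h (8.31% of all genes). The summed FPKM of the list was 485 to 548 at 5 h and 259 to 596 at 3 h. RBP2 (ENSDARG00000070038), the retinol-binding protein of the gut, had 47.9, 67.8 and 64.9 FPKM at 5 h, against 42, 53.7 and 30.7 FPKM at 3 h (difference 0.52 ± 0.27). For liver 23 of 38 were positive (median 0.15, and -0.13 without replicate 3 of 3 h or -0.07 without replicate 3 of 5 h), 0 lay higher and 1 lower, and the summed FPKM was 1364 to 1876 at 5 h and 882 to 2038 at 3 h. uox (ENSDARG00000007024), urate oxidase, had 16.3, 22.7 and 22.6 FPKM at 5 h, against 11.7, 21.3 and 9.92 FPKM at 3 h (difference 0.55 ± 0.29). Replicate 3 was the lowest of the 3 h libraries in all 3 of the digestive organ lists.

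In most of the other cell type lists few members lay apart with every library kept, and their summed levels show which markers the sorted cells held. Without overlap 5.01% of all genes lay higher and 10.8% lower. These shares were 8.31% and 15.0% without replicate 1 of 5 h, and 7.95% and 17.0% without replicate 1 of 3 h. They hold for the cell type lists of the following paragraphs too. Several counts rose when a library was left out. Red blood cell genes, the globins among them, summed to 27866 to 44020 FPKM at 5 h and 27304 to 40961 FPKM at 3 h, with 0 of 22 members higher and 1 lower (median -0.02). gata1a (ENSDARG00000013477), the master transcription factor of the lineage, had the smallest p with 29.2, 36 and 28.4 FPKM at 5 h, against 43.4, 37 and 47.2 FPKM at 3 h (difference -0.44 ± 0.16). Photoreceptor genes summed to 9250 to 20953 FPKM at 5 h and 10594 to 12816 FPKM at 3 h, with replicate 2 of 5 h far above the rest. Of that list 0 of 25 lay apart, or 7 higher without replicate 1 of 5 h (8.31% of all genes). The median of 0.09 was -0.11 without replicate 2 of 5 h and 0.27 without replicate 1 of 5 h. opn1lw1 (ENSDARG00000044862), a cone opsin, had 8.98, 12.8 and 10.3 FPKM at 5 h, against 3.71, 9.58 and 5.86 FPKM at 3 h (difference 0.73 ± 0.35). Neuron genes summed to 1727 to 2098 FPKM at 5 h and 1922 to 1936 FPKM at 3 h, with 0 of 27 members higher and 3 lower (median -0.06). ISL1 (ENSDARG00000004023), a transcription factor of motor and sensory neurons and of islets, had 51.6, 45.8 and 51.9 FPKM at 5 h, against 37.9, 48.5 and 35.3 FPKM at 3 h (difference 0.30 ± 0.13) and the smallest p of both the neuron list and the list of endocrine pancreas and peptide hormones, where 0 of 21 lay apart.

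Skin genes summed to 2495 to 3708 FPKM at 5 h and 2393 to 3482 FPKM at 3 h. Of 36 members 0 lay higher and 1 lower, or 9 lower without replicate 1 of 5 h (15.0% of all genes). The median was -0.14, and 0.02 without replicate 3 of 5 h. The 1 that lay lower with every library kept was PERP (ENSDARG00000063572), a component of desmosomes, with 41.3, 45.2 and 39.4 FPKM at 5 h, against 53.8, 52.7 and 50.8 FPKM at 3 h (difference -0.32 ± 0.10, adjusted p = 0.502). Neutrophil genes summed to 2324 to 4045 FPKM at 5 h and 2740 to 4133 FPKM at 3 h, and macrophage genes to 925 to 1041 FPKM at 5 h and 849 to 1133 FPKM at 3 h. No member of either list lay apart (0 of 21 and 0 of 20), with 3 neutrophil genes lower without replicate 1 of 5 h (15.0% of all genes). Of the neutrophil differences 17 were negative and 4 positive. Their median was -0.19 (-0.28 to -0.06 without 1 library), and that of the macrophage list was -0.01. mmp13a (ENSDARG00000012395), a matrix metalloproteinase of the neutrophil list, had 52.9, 37.4 and 41.4 FPKM at 5 h, against 111, 48.9 and 75.7 FPKM at 3 h (difference -0.76 ± 0.37, interval from -1.57 to 0.04), and ptprc (ENSDARG00000071437), the leukocyte phosphatase CD45, had 35, 28.5 and 31.8 FPKM at 5 h, against 45.1, 28.2 and 37.8 FPKM at 3 h (difference -0.19 ± 0.19). Skeletal muscle genes summed to 531 to 624 FPKM at 5 h and 557 to 636 FPKM at 3 h. Of 21 tested members 1 lay higher and 0 lower, or 5 lower without replicate 1 of 5 h (15.0% of all genes). The median was 0.01. atp2a1 (ENSDARG00000020574), the calcium pump of fast muscle, had 29.5, 35.2 and 20.4 FPKM at 5 h, against 42.8, 34 and 44.1 FPKM at 3 h (difference -0.52 ± 0.19). In the kidney list 0 of 11 lay higher and 2 lower (median -0.11), and PAX2 (ENSDARG00000028148), a transcription factor of kidney, ear and midbrain, had 10.9, 12 and 13.1 FPKM at 5 h, against 16.7, 17.8 and 18 FPKM at 3 h. Its difference was -0.51 ± 0.10 (adjusted p = 0.369), with both groups tight and apart.

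Of lens genes 28 were matched and 1 was tested, CRYBA4 (ENSDARG00000024548), a crystallin, with 4.11, 2.46 and 1.88 FPKM at 5 h, against 3.92, 1.86 and 1.21 FPKM at 3 h (difference 0.24 ± 0.30), and the others did not reach the level needed to be tested. For cardiac muscle 7 of 12 matched members were tested and 0 lay apart, or 3 higher without replicate 1 of 5 h (8.31% of all genes). The atrial light chain gene cmlc1 (ENSDARG00000032976) had 1.4, 5.08 and 2.92 FPKM at 5 h, against 1.1, 2.48 and 2.23 FPKM at 3 h (difference 0.42 ± 0.36). For Müller and radial glia 0 of 18 lay apart (median 0.01), and SLC1A2 (ENSDARG00000052138), a glutamate transporter, had 15.7, 38.7 and 24.2 FPKM at 5 h, against 44.4, 35.9 and 37.3 FPKM at 3 h, with replicate 2 of 5 h inside the 3 h range (difference -0.65 ± 0.31). For oligodendrocytes and Schwann cells 3 of 13 lay higher and 1 lower (5.01% and 10.8% of all genes; median 0.04), or 5 higher without replicate 1 of 3 h (7.95% of all genes). EGR2 (ENSDARG00000042826), a regulator of myelin genes, had 5.15, 4.43 and 5.88 FPKM at 5 h, against 4.28, 3.72 and 3.1 FPKM at 3 h (difference 0.39 ± 0.17). In cartilage and bone 0 of 19 lay higher and 1 lower although the median was 0.20 (0.09 to 0.43 without 1 library), and that gene was SOX9 (ENSDARG00000003293), the regulator of cartilage, with 27, 31.8 and 30.5 FPKM at 5 h, against 32.4, 38.1 and 37.2 FPKM at 3 h (difference -0.26 ± 0.11). In fibroblasts 0 of 25 lay higher and 2 lower (median 0.05), and COL12A1 (ENSDARG00000078322), a collagen of connective tissue, had 27.1, 33.8 and 28.2 FPKM at 5 h, against 36.6, 44.3 and 36 FPKM at 3 h (difference -0.38 ± 0.23). Ionocyte genes had 0 higher and 1 lower of 15, and the median of -0.01 ran from -0.22 without replicate 3 of 3 h to 0.33 without replicate 3 of 5 h, with RHCG (ENSDARG00000003203), an ammonia channel, at 6.71, 1.49 and 2.03 FPKM at 5 h, against 4.02, 5.9 and 5.95 FPKM at 3 h (difference -0.68 ± 0.45). For pigment cells 1 of 16 lay higher and 3 lower (median 0.08), or 3 and 3 without replicate 1 of 3 h (7.95% and 17.0% of all genes). GCH1 (ENSDARG00000070453), which starts pteridine synthesis, had 2.91, 3.75 and 4.17 FPKM at 5 h, against 4.98, 5.44 and 5.72 FPKM at 3 h (difference -0.48 ± 0.19). For the notochord 0 of 9 lay higher and 1 lower (median -0.09), or 3 lower without replicate 1 of 5 h (15.0% of all genes). CNN2 (ENSDARG00000035858), a calponin, had 49.8, 48.7 and 46.6 FPKM at 5 h, against 63.2, 50.6 and 56.3 FPKM at 3 h (difference -0.22 ± 0.16).

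Hair cell and supporting cell genes are given because neomycin acts on the first of these cell types and the other replaces it. Of 20 tested hair cell members 2 lay higher and 1 lower without overlap (5.01% and 10.8% of all genes), with a median of -0.05. Their sum was 257 to 304 FPKM at 5 h and 246 to 336 FPKM at 3 h. In the GFP+ libraries of the same times it was 1887 to 3350 FPKM. FPKM are relative to each library, so these sums do not say how hair cell RNA was split between the fractions. LHFPL5 (ENSDARG00000045023), a subunit of the mechanotransduction channel complex of hair cells, had the smallest p, with 1.23, 1.11 and 1.18 FPKM at 5 h, against 0.542, 0.385 and 0.521 FPKM at 3 h. Its 5 h libraries were tight and all lay above its 3 h libraries, a difference of 0.55 ± 0.11 (adjusted p = 0.369). These values lay near the level of 1 FPKM needed to be tested, and LHFPL5 reached that level only at 5 h. The filter thus fixed its direction and lack of overlap, though it is 1 of the 2 members counted as higher. In the GFP+ libraries of the same times LHFPL5 stood at 10.7 to 17.0 FPKM. Of 27 tested lateral line supporting cell members 1 lay higher and 3 lower. Without replicate 1 of 3 h these counts were 1 and 7 (7.95% and 17.0% of all genes). The median was -0.03, and 0.27 in GFP+ cells, where 3 members passed with higher values, against 0.893% of all genes. pard3bb (ENSDARG00000034555), a cell polarity gene, had 4.09, 4.2 and 5.68 FPKM at 5 h, against 6.34, 6.98 and 6.65 FPKM at 3 h (difference -0.45 ± 0.11, adjusted p = 0.449).

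The medians of the signalling lists stayed close to that of all genes. Without overlap 5.01% of all genes lay higher and 10.8% lower. These shares were 7.95% and 17.0% without replicate 1 of 3 h, and 8.31% and 15.0% without replicate 1 of 5 h. After median-of-ratios scaling they were 7.91% and 7.55%. For Notch 0 of 27 lay higher and 4 lower (median -0.03), and NOTCH3 (ENSDARG00000052139), a receptor, had 37, 40.3 and 40.6 FPKM at 5 h, against 43.9, 46.1 and 46.3 FPKM at 3 h (difference -0.20 ± 0.10). Fgf had 1 higher and 3 lower of 18 (median -0.04), or 1 and 8 without replicate 1 of 3 h, where 17.0% of all genes lay lower. The receptor gene FGFR3 (ENSDARG00000004782) had 16.2, 19.8 and 19.4 FPKM at 5 h, against 21.8, 25.7 and 22.7 FPKM at 3 h (difference -0.33 ± 0.12). For Wnt/beta-catenin 0 of 27 lay higher and 3 lower, or 5 lower without replicate 1 of 3 h (median -0.10), and LRP5 (ENSDARG00000006921), a co-receptor, had 9.67, 10.03 and 9.56 FPKM at 5 h, against 11.7, 12.2 and 12.1 FPKM at 3 h, 2 narrow groups that did not touch (difference -0.27 ± 0.10, adjusted p = 0.534). Bmp and Tgf-beta had 0 higher and 2 lower of 36 (median -0.01), or 2 and 6 without replicate 1 of 3 h. TGFBR1 (ENSDARG00000042259), a receptor kinase, had 12.4, 15.3 and 16.9 FPKM at 5 h, against 19.5, 18 and 20.6 FPKM at 3 h (difference -0.36 ± 0.11). Among immediate early and AP-1 genes 2 of 36 lay higher and 5 lower, or 3 and 3 after median-of-ratios scaling (median -0.07). FOSB (ENSDARG00000055751), an AP-1 subunit, had 0.809, 1.01 and 1.78 FPKM at 5 h, against 3.65, 1.29 and 2.91 FPKM at 3 h, with replicate 3 of 5 h above replicate 2 of 3 h (difference -0.68 ± 0.26). For NF-kB and inflammation 0 of 30 lay higher and 2 lower (median -0.05), or 1 and 5 without replicate 1 of 5 h, and TNFAIP3 (ENSDARG00000027777), a feedback inhibitor of NF-kB, had 4.3, 4.31 and 4.77 FPKM at 5 h, against 7.09, 4.85 and 5.75 FPKM at 3 h (difference -0.33 ± 0.14). Interferon and antiviral genes had 1 higher and 1 lower of 16 tested (median 0.02), or 5 and 1 without replicate 1 of 3 h. PSMB10 (ENSDARG00000043781), a subunit of the immunoproteasome, had 11, 8.19 and 9.34 FPKM at 5 h, against 5.68, 7.42 and 7.86 FPKM at 3 h (difference 0.40 ± 0.19).

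The remaining metabolic lists were also near the background. That background was 5.01% of all genes higher and 10.8% lower. It was 8.31% and 15.0% without replicate 1 of 5 h, and 7.95% and 17.0% without replicate 1 of 3 h. For oxidative stress and Nrf2 0 of 21 lay higher and 2 lower (median -0.02), or 1 and 4 without replicate 1 of 3 h, and GCLC (ENSDARG00000013095), of glutathione synthesis, had 13, 13 and 12.9 FPKM at 5 h, against 14.2, 14.9 and 15.4 FPKM at 3 h. The 5 h libraries of GCLC were nearly equal and all lay below the 3 h libraries (difference -0.18 ± 0.07, adjusted p = 0.547). Glycolysis and hypoxia had 2 higher and 3 lower of 37 (median -0.07), or 3 and 6 without replicate 1 of 5 h. Gluconeogenesis and fasting had 0 higher and 1 lower of 24 (median -0.09), or 1 and 4 without replicate 1 of 3 h. PPARGC1A (ENSDARG00000067829), a coactivator of mitochondrial and fasting genes, had 5.67, 8.41 and 5.99 FPKM at 5 h, against 12.3, 9.87 and 8.38 FPKM at 3 h, with replicate 2 of 5 h just above replicate 3 of 3 h (difference -0.54 ± 0.16, adjusted p = 0.489).

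The levels of the same lists in all 12 GFP- libraries place the comparison in the course of the experiment. For the light-responsive repair list the mean log2(FPKM + 1) lay between 2.705 and 2.899 in the mock libraries, between 4.206 and 4.454 in those of 1 h, between 3.260 and 4.243 in those of 3 h and between 2.819 and 3.233 in those of 5 h. The 5 h libraries all lay below the 3 h libraries, and 1 of them lay within the range of mock. The circadian clock list lay between 4.3996 and 4.505 in mock libraries, between 5.023 and 5.077 in those of 1 h, between 4.323 and 4.490 in those of 3 h and between 4.120 and 4.419 in those of 5 h. The ribosome biogenesis list was highest at 3 h, with 4.687 and 4.762 as the limits in mock libraries, 4.829 and 4.846 in those of 1 h, 5.036 and 5.098 in those of 3 h and 4.736 and 5.023 in those of 5 h. The endothelium list had limits of 2.784 and 3.106 in mock libraries, 3.063 and 3.175 in those of 1 h, 3.153 and 3.327 in those of 3 h and 2.979 and 3.013 in those of 5 h. For S phase the limits were 4.580 and 4.849, 4.175 and 4.460, 4.611 and 4.835, and 4.703 and 4.923 in the same order, lowest at 1 h. KLF9 averaged 16.7 ± 9.59 FPKM in mock, 57.5 ± 6.57 FPKM at 1 h, 30.3 ± 4.07 FPKM at 3 h and 14.8 ± 2.74 FPKM at 5 h (mean ± SD, n = 3 each), and DDB2 averaged 9.49 ± 2.2 FPKM, 22.9 ± 2.25 FPKM, 19.2 ± 5.57 FPKM and 9.52 ± 1.6 FPKM in the same order. Mock and 1 h libraries carry another date than 3 h and 5 h libraries, so steps across that line cannot be told apart from the date.

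**Figure D4:**
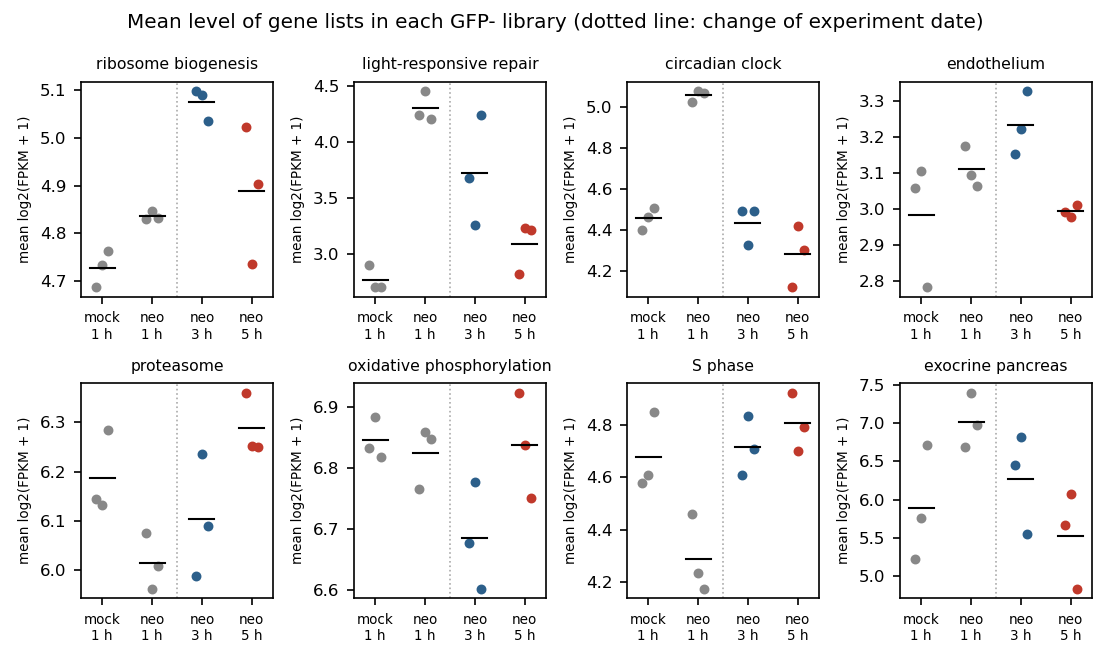
Mean log2(FPKM + 1) over the tested members of 8 lists (y axes, each with its own range) in every GFP- library of mock 1 h, neomycin 1 h, 3 h and 5 h (x axes; neo stands for neomycin), with group means as black lines. Ribosome biogenesis is highest at 3 h, light-responsive repair and clock genes are highest at 1 h, and a dotted line separates the experiment dates.

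In all, 8 loci were listed at 0 FPKM in all 3 libraries of 1 time and were tested, 6 of them at 0 at 3 h and 2 at 0 at 5 h. With the 6 libraries fitted alone, these 8 were the genes that passed an adjusted p of 0.05, and in the fit of all 12 GFP- libraries they did not. Each entered the test only through the time at which it was above 0, so the filter fixed its lack of overlap. MIR9-2 (ENSDARG00000080612), named for a microRNA, had 6.94, 5.68 and 6.36 FPKM at 5 h, against 0 FPKM in each library at 3 h. Another 3 carry the name 5S_rRNA, a small ribosomal RNA, and had 9.42 to 24.7 FPKM at 5 h and 0 at 3 h. ENSDARG00000084255 had 12.8, 10.5 and 11.7 FPKM at 5 h, against 0 FPKM in each library at 3 h, and ENSDARG00000083826 had 15.2, 18.6 and 6.95 FPKM at 5 h, against 0 FPKM in each library at 3 h. ENSDARG00000081450 had 0 FPKM in each library at 5 h, against 48.7, 69.2 and 39.5 FPKM at 3 h, and ENSDARG00000085062 had 0 FPKM in each library at 5 h, against 8.71, 6.18 and 7.05 FPKM at 3 h. Poly(A) selection does not capture such small RNAs by design, and a 0 in an FPKM table can be a failed estimate, so no fold is given for them.

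The same interval was compared in GFP+ cells of the same date to see whether the GFP- cells differed from them. Genes were kept for this by their level in GFP- cells, so genes read almost only in GFP+ cells are left out. TSPAN1 was among those left out, with means of 109 FPKM at 5 h and 70.0 FPKM at 3 h in GFP+ cells. The counts therefore do not give the full extent of the GFP+ change. Between 5 h and 3 h, 311 of the 19256 genes (1.62%) passed in GFP+ cells, 172 higher and 139 lower at 5 h. Because no gene passed in GFP- cells, 0 of these 311 did there. The GFP+ test took its spread from the 12 libraries of 3 h and 5 h of both populations. The GFP- test took it from the 12 GFP- libraries, so these counts do not rest on the same spread. Libraries were treated as independent, although GFP+ and GFP- libraries of the same number may come from the same pool. A call in 1 population and not in the other does not show a difference, and the difference itself (the GFP- change minus the GFP+ change) passed for 5 genes (0.026%), 4 of which were among the 311. At an unadjusted p under 0.05 there were 1317. The difference was positive for 1, MIR9-2, which was listed at 0 in 9 of the 12 libraries, all 6 of GFP+ cells and the 3 of GFP- cells at 3 h. Its p rests on groups with no spread, so neither its difference nor its p is given, and with all 24 libraries in the fit it did not pass. The difference was negative for 4 genes, each nearly level in GFP- cells and higher at 5 h in GFP+ cells. SDK1 (ENSDARG00000062854), a cell adhesion molecule of synapses, had 2.36, 2.62 and 2.95 FPKM at 5 h, against 3.13, 2.88 and 2.98 FPKM at 3 h in GFP- cells, and 6.06, 6.13 and 5.22 FPKM at 5 h, against 1.13, 1.08 and 0.814 FPKM at 3 h in GFP+ cells. Its difference between populations was -1.90 ± 0.15 (adjusted p = 0.00109). B4GALNT4 (ENSDARG00000046150), a glycosyltransferase, had 3.61, 4.1 and 3.53 FPKM at 5 h, against 4.14, 4.004 and 3.89 FPKM at 3 h in GFP- cells, and 5.4, 5.68 and 5.16 FPKM at 5 h, against 1.64, 2.02 and 1.96 FPKM at 3 h in GFP+ cells (difference -1.24 ± 0.13, adjusted p = 0.0128). SRCIN1 (ENSDARG00000059773), an adaptor that inhibits the kinase Src, had 4.23, 4.09 and 3.89 FPKM at 5 h, against 5.13, 4.63 and 5.05 FPKM at 3 h in GFP- cells, and 9.75, 11.2 and 11.11 FPKM at 5 h, against 3.35, 4.84 and 3.55 FPKM at 3 h in GFP+ cells (difference -1.49 ± 0.17, adjusted p = 0.0142). RAP1GAP (ENSDARG00000056554), which switches off the GTPase Rap1, had 6.19, 6.87 and 6.83 FPKM at 5 h, against 7.31, 5.65 and 7.29 FPKM at 3 h in GFP- cells, and 16.3, 14.8 and 16.5 FPKM at 5 h, against 3.97, 4.11 and 5.7 FPKM at 3 h in GFP+ cells (difference -1.62 ± 0.19, adjusted p = 0.0142). In these 4 genes the GFP+ libraries of the 2 times did not overlap, while the GFP- libraries overlapped in SDK1, B4GALNT4 and RAP1GAP and lay slightly lower at 5 h in SRCIN1. SDK1 passed without any 1 library. The call was lost at adjusted p = 0.0551 to 0.0642 for B4GALNT4 without replicate 1 or 3 of GFP- 5 h or replicate 1 or 3 of GFP- 3 h. It was lost at adjusted p = 0.0525 to 0.0741 for SRCIN1 without replicate 1, 2 or 3 of GFP- 5 h, 1 or 3 of GFP- 3 h, or 2 or 3 of GFP+ 5 h. For RAP1GAP it was lost at adjusted p = 0.0609 to 0.0741 without replicate 1, 2 or 3 of GFP- 5 h, 1 or 3 of GFP- 3 h, or 1 or 3 of GFP+ 5 h.

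**Figure D5:**
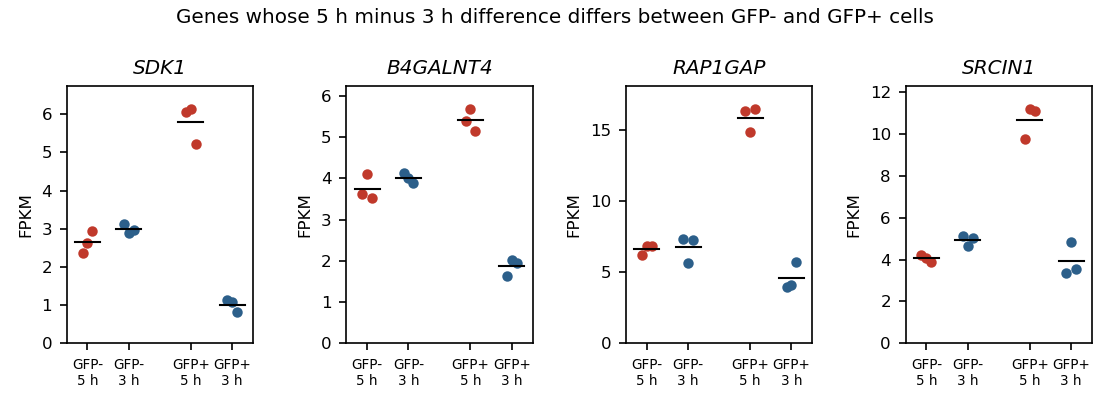
FPKM (y axes, from 0) of the 4 genes whose 5 h minus 3 h difference was lower in GFP- than in GFP+ cells, in the 3 libraries of each group (points; lines are means), GFP- at the left and GFP+ at the right, 5 h in red and 3 h in blue. The GFP- points of both times lie close together, and the GFP+ points of 5 h lie above those of 3 h.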

How the data were processed

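RNA from GFP- cells of 4 groups of 3 libraries was analysed, with the GFP+ libraries of 5 h and 3 h as a comparison. The authors deposited FPKM per Ensembl gene, per the labels one column a library. The submitters' processing notes name CASAVA 1.8.2, TopHat 1.4.1, Cufflinks 1.3 and the build danRer7. The sources used here give no annotation release, strand setting or gene positions, so reads of overlapping or antisense genes cannot be told apart. FPKM divides by the library's mapped fragments, so a few abundant loci can shift all other values. The locus ENSDARG00000081369 held 16.5% to 19.6% of the FPKM sum.

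Of 31199 rows, 112 repeats were dropped. Of 31087 IDs, 20499 had a symbol in a table of gene names, and 15274 of the 19256 tested did. Many symbols are those of mammalian orthologs, so paralogs can share one. In the lists and for genes chosen by symbol, the ID with the highest mean then stands for it. Genes that passed for the difference between populations were taken by ID. Genes with 1 FPKM or more in 3 of the 6 libraries were tested on log2(FPKM + 1), with no further scaling, with limma 3.58.1 in R 4.3.3 (trended prior, 1 mean per group over the 12 GFP- libraries, two-sided, Benjamini-Hochberg). This scale understates differences of low genes. The 11831 other IDs include 4343 at 0 in all 6 libraries. The difference between populations was an interaction contrast over the 12 libraries dated Apr2012. The GFP+ change was tested on the same 12 libraries. Both used the genes kept by their level in GFP- cells. Relative depth was the most frequent ratio between libraries of values under 0.15 FPKM, within 0.02 log2. The procedure was tested on simulated data.

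The comparison, the lists and the rule for named genes (the smallest p of each list, since no gene passed) were chosen with earlier results of these data known. Alternatives were a pseudocount of 0.1, no filter, a filter of 5 FPKM, median-of-ratios and quantile scaling, other sets of libraries in the fit, a log2 threshold of 1, a replicate block and each library left out. Counts of members without overlap were also made without replicate 1 of either time and after scaling, settings chosen after seeing the data.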

Additional observations from a re-analysis of the deposited data

Results flagged for a closer look

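For 4 genes with values in every group the difference between 5 h and 3 h itself differed between GFP- and GFP+ cells in the interaction test over 12 libraries (limma, adjusted p under 0.05). The value given is the GFP- change minus the GFP+ change on the log2 scale. It was -1.90 for SDK1 (adjusted p = 0.00109), -1.24 for B4GALNT4 (adjusted p = 0.0128), -1.49 for SRCIN1 (adjusted p = 0.0142) and -1.62 for RAP1GAP (adjusted p = 0.0142), with all 3 GFP+ libraries of 5 h above all 3 of 3 h in each. The symbols SDK1, B4GALNT4 and RAP1GAP each belong to 2 IDs, and for each only the ID given above passed. MIR9-2 also passed but was listed at 0 in 9 of the 12 libraries, where a 0 may be a failed estimate, so no difference is given for it. Groups of 3 libraries are too small for a check of single outlying samples, so none was made.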

How the results depend on the processing

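No gene passed in GFP- cells under any setting tried but 1. With the 6 libraries fitted alone 6 genes were higher and 2 lower, all of them loci listed at 0 at 1 of the times. Leaving out a library gave 0 in every case. At an unadjusted p under 0.05 the counts of 502 higher and 1171 lower were 862 and 790 after median-of-ratios scaling and 869 and 762 after quantile normalization. They were 325 higher without replicate 1 of 3 h and 674 lower without replicate 1 of 5 h, and without 1 library they ran from 325 to 674 and from 674 to 1351. For the difference between populations, the 1 higher gene was 0 with all 24 libraries and 2 with the replicate block, and 1 to 2 without 1 library. The 4 lower genes were 1 with a filter of 5 FPKM, since SDK1, B4GALNT4 and SRCIN1 were too low in GFP- cells to be tested under it. Without 1 library they were 1 to 7. At an unadjusted p under 0.05 the 892 lower genes were 587 with that filter. The cause of the other changes was not tested.

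With the replicate number as a block 0 genes passed in GFP- cells, and the unadjusted counts were 530 and 1309. Deviations from the group means correlated at 0.0937, 0.107 and 0.159 across genes for libraries of the same number and at -0.0811 to -0.0237 for others. Each library correlated best with its own number, a hint from the data and not from the design, since the labels do not pair the samples.

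Of the named genes 2 changed sign. CRYBA4, at 0.24, was -0.0175 without replicate 3 of GFP- 3 h and ran up to 0.56 without another library. RAP1GAP in GFP- cells, at -0.0162, was 0.0232 after median-of-ratios scaling and 0.0385 after quantile normalization, and ran from -0.123 to 0.0378 without 1 library. Over the list medians and member counts 874 values under alternatives stayed near the main value and 105 moved. A median counted as near if it moved by less than the larger SD of the list mean among 5 h or 3 h libraries. That limit is loose, so a median could change sign and still count as near. Without 1 library the median of 26 of 48 lists changed sign. FPKM give no read totals, so depth limits are not known beyond the relative depths, and 3 libraries a group limit the precision.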
